A study of Mus musculus with 6 samples.

Results

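Transient receptor potential (TRP) channels are cation channels, and several of them let sensory neurons of the dorsal root ganglion (DRG) respond to heat, cold and irritants. The 9 TRP channel genes described here are Trpv1, Trpv2, Trpa1, Trpm8, Trpm3, Trpm2, Trpm4, Trpm7 and Trpc1. They were chosen by gene symbol, as the rows of the expression table that carry these names, and all 9 had values in all 6 libraries. The table holds 19306 genes with values, and 14006 of them, all 9 channels included, had at least 0.5 FPKM in at least 3 libraries and were tested.

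The data came from ipsilateral L3 to L5 DRG of wild-type mice, taken on day 14 after surgery, with 3 sham and 3 LAS libraries. LAS model mice had an ankle incision with both the ATFL and the CFL, ligaments of the lateral ankle, transected, as a model of lateral ankle sprain. Sham mice had an incision at the same place and kept both ligaments, so both groups carried the skin wound. The methods name C57BL/6 mice of 6 to 8 weeks and both sexes, and neither the sex nor the number of animals behind a library is given, so p-values measure only the spread between these libraries.

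Trpv1, the capsaicin receptor, opens to noxious heat and acid and marks many nociceptors, while Trpm3 is a further heat-gated channel and Trpm8, the menthol receptor, marks a small population of cold-sensing neurons. Trpa1 responds to electrophilic irritants and sits largely in neurons that also carry Trpv1. Trpv2 is abundant in larger neurons and also in macrophages. Trpm2 is opened by ADP-ribose and oxidative stress and occurs in neurons and myeloid cells, Trpm4 is a calcium-activated channel for monovalent cations, Trpm7 joins a channel with a kinase domain, and Trpc1 is a canonical TRP subunit that assembles with other subunits. LAS model mice are studied for pain, and the comparison asks whether the channels' transcripts differed between LAS and sham ganglia.

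FPKM values, which are normalised to gene length and library size, allow levels to be set side by side between genes. The libraries fit the labelled tissue, since all 10 pan-neuronal markers were tested and their summed level was 7039 to 7497 FPKM. Sham replicate 3 stood apart, at 47.6 on a first principal component that held 57.2% of the variance, against -20.1 to 8.0 for the others. Its skeletal muscle markers summed to 1557 FPKM and its neutrophil markers to 2028 FPKM, against 24.8 to 194 FPKM and 65.2 to 406 FPKM in the other 5 libraries. All 7 muscle, all 8 neutrophil and all 6 erythroid markers had their highest level there. For the 9 channels the comparison is therefore given with and without this library.

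Trpv1 and Trpv2 were the most abundant of the 9 channels. Together they held 52.3% to 56.7% of the summed level of the 9 genes in every library. Trpv1 averaged 33.0 FPKM over the 6 libraries, above 82.2% of tested genes, and Trpv2 averaged 29.8 FPKM, above 80.2%. Their ranges overlapped, and Trpv1 was above Trpv2 in 5 of 6 libraries, the exception being sham replicate 3. A clear step followed, because the lowest Trpv2 value of 28.5 FPKM lay far above the highest Trpa1 value of 11.4 FPKM.

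Below that step the levels formed a continuous series in which each neighbour overlapped the next. Trpa1 averaged 10.1 FPKM, Trpm2 8.71 FPKM, Trpm8 8.21 FPKM and Trpm4 8.16 FPKM. Trpc1 averaged 7.04 FPKM, Trpm7 5.95 FPKM and Trpm3 5.11 FPKM, the last of these still above 35.9% of tested genes. Within libraries the order held for some neighbours and not for others. Trpc1 was above Trpm7, and Trpm7 above Trpm3, in 6 of 6 libraries, and Trpm4 was above Trpc1 in 5 of 6. Trpa1 was above Trpm2 in 4 of 6 libraries, Trpm8 above Trpm4 in 3 of 6 and Trpm2 above Trpm8 in 2 of 6.

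Of the 9 channels, 0 were called between LAS and sham libraries, beside 0 of 14006 tested genes (0%). To be called, a gene needed a fold of at least 1.5 and a limma p, adjusted over all tested genes by Benjamini and Hochberg, no higher than 0.05 on log2(FPKM + 0.1). Before adjustment 495 genes (3.53%) and 0 of the 9 channels had p no higher than 0.05. The adjusted p was 1.00 from limma for each channel. The LAS and sham libraries overlapped for all 9 channels, whereas they did not overlap for 9.7% of tested genes. On the log2 scale 7 channels had a higher and 2 a lower mean in LAS libraries, and the median log2 fold change of the 9 was 0.08, against 0.00 for all tested genes. In bulk tissue fewer cells of a type and less RNA per cell cannot be told apart. The sum of the 9 channels was 114 ± 16.7 against 118 ± 7.29 FPKM (sham against LAS, SD, n = 3 each), with the lowest value, 95.1 FPKM, in sham replicate 3.

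**Figure D1:**
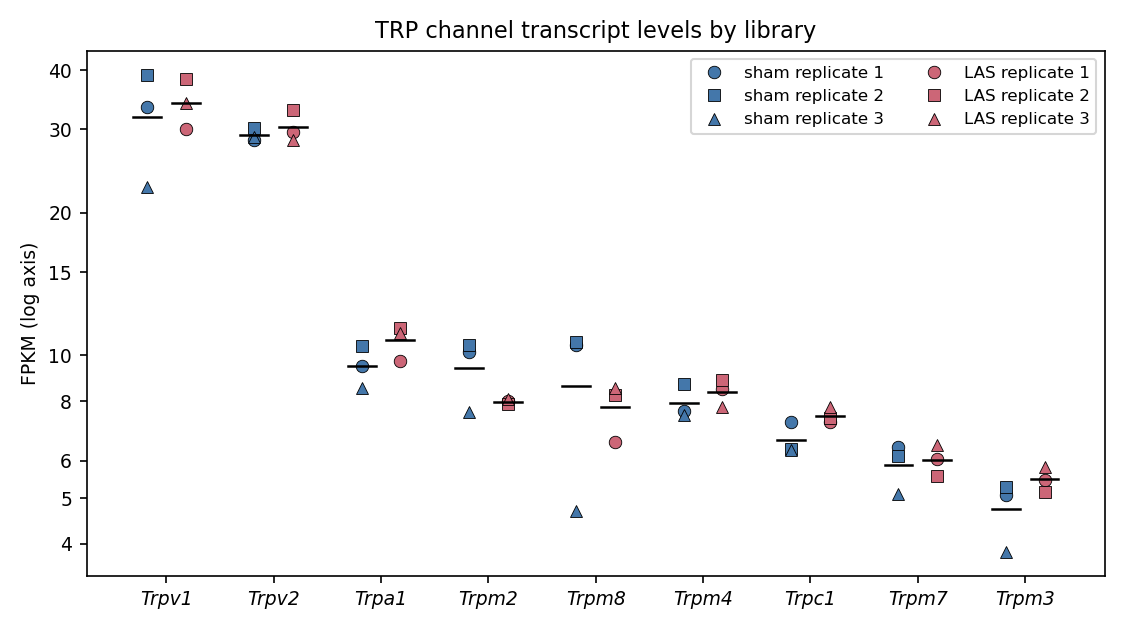
FPKM of each of the 9 TRP channels (logarithmic axis) in sham (blue) and LAS (red) libraries, with marker shape for the replicate and a bar at the group mean of 3 libraries. Sham replicate 3 (blue triangle) is the lowest library for every channel except Trpv2, and LAS and sham points overlap for all 9.

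Among the heat-gated channels, Trpv1 was at 33.5, 39.2 and 22.7 FPKM in sham replicates 1 to 3. In LAS replicates 1 to 3 it was at 30.1, 38.3 and 34.2 FPKM. All 3 LAS values lay between the lowest and the highest sham value. The mean was 31.8 ± 8.36 against 34.2 ± 4.13 FPKM (sham against LAS, SD, n = 3 each), with a log2 fold change of 0.13 (95% interval -0.33 to 0.60 from limma). With sham replicate 3 left out LAS minus sham was -0.09 on the log2 scale (95% interval -0.35 to 0.17), so the direction of the difference rested on that library. The interval over 6 libraries covers folds from 0.794 to 1.51, and it does not show that the groups were alike.

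Trpm3, a channel opened by heat and by the steroid pregnenolone sulfate, was at 5.08, 5.28 and 3.85 FPKM in sham replicates 1 to 3. The LAS replicates were at 5.47, 5.14 and 5.82 FPKM. LAS replicates 1 and 3 were above all sham libraries, and LAS replicate 2 lay between the sham values. LAS minus sham was 0.22 (SE 0.13) on the log2 scale with 6 libraries and 0.08 (SE 0.09) without sham replicate 3. Trpv2 varied least between libraries. It was at 28.5, 30.3 and 28.9 FPKM in sham and at 29.7, 33.0 and 28.5 FPKM in LAS libraries. The groups overlapped, with a log2 fold change of 0.06 (95% interval -0.11 to 0.22 from limma), which is a fold of 0.928 to 1.16, and 0.05 without sham replicate 3. Trpv2 had the narrowest spread of the 9 channels over 6 libraries, with the highest value 1.16 times the lowest.

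Trpa1, the irritant receptor, was at 9.49, 10.5 and 8.54 FPKM in sham replicates 1 to 3. The LAS replicates were at 9.74, 11.4 and 11.1 FPKM. LAS replicates 2 and 3 were above all sham libraries, and LAS replicate 1 lay below sham replicate 2. LAS minus sham was 0.18 (SE 0.10) on the log2 scale with 6 libraries and 0.11 (SE 0.09) without sham replicate 3. Trpv1 stood at 2.66 times Trpa1 in sham replicate 3, at 3.53 and 3.75 times in sham replicates 1 and 2, and at 3.07 to 3.35 times in LAS libraries. This ratio was lower in every LAS library than in sham replicates 1 and 2, and lowest in sham replicate 3. The ratio was not tested, and no share over other ratios of genes was worked out. For levels of single genes, the groups without sham replicate 3 did not overlap for 28.9% of tested genes. Trpv1 over Trpm8 went the other way, at 4.01 to 4.65 in LAS libraries against 3.18 and 3.67 in sham replicates 1 and 2. That ratio was highest in sham replicate 3, at 4.83.

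Trpm8, the cold receptor, varied most. It was at 10.5, 10.7 and 4.70 FPKM in sham replicates 1 to 3. In LAS replicates 1 to 3 it was at 6.56, 8.25 and 8.52 FPKM. Sham replicates 1 and 2 held the 2 highest values and sham replicate 3 the lowest, so the LAS libraries lay inside the sham range. The mean was 8.63 ± 3.41 against 7.78 ± 1.06 FPKM (sham against LAS, SD, n = 3 each). The log2 fold change was -0.07 (95% interval -0.80 to 0.67 from limma), an interval that covers folds from 0.575 to 1.59. Of all tested genes 95% had a smaller residual SD than the 0.49 (log2) of Trpm8.

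Trpm2, the oxidative stress channel, had the tightest LAS values. It was at 10.2, 10.5 and 7.58 FPKM in sham replicates 1 to 3. The LAS replicates were at 8.0, 7.88 and 8.09 FPKM, a coefficient of variation of 1.32% against 17.0% in sham libraries. Again sham replicates 1 and 2 were above all LAS libraries and sham replicate 3 was below them. The log2 fold change was -0.22 (95% interval -0.52 to 0.08 from limma).

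With sham replicate 3 left out, Trpm2 and Trpm8 were lower in every LAS library than in both remaining sham libraries. These were 2 of the 9 channels, beside 11.3% of tested genes that were lower without overlap and 28.9% without overlap in either direction. LAS minus sham for Trpm2 was then -0.37 on the log2 scale (SE 0.06, limma adjusted p = 0.212), which ranked 34 by p among 13865 tested genes. For Trpm8 it was -0.45 (SE 0.12, limma adjusted p = 0.363). Neither passed after adjustment, and 0 of the 13865 genes (0%) were called. Both had p no higher than 0.05 before adjustment, as did 10.2% of tested genes in either direction and 3.74% that were lower. Leaving out another sham library brought other channels to this level, in the higher direction. Without sham replicate 1 it was Trpc1, at 0.23 on the log2 scale (limma adjusted p = 0.938), beside 3.39% of tested genes. Without sham replicate 2 it was Trpa1, at 0.25 (limma adjusted p = 0.972), beside 2.87% of tested genes. For Trpm8 the direction rested on which sham library was left out, since without sham replicate 1 or 2 its log2 fold change was 0.12 or 0.13. For Trpm2 the size changed and the direction did not, at -0.16 or -0.14. With every library kept but weighted by limma array weights, Trpm2 was at -0.34 (SE 0.07, limma adjusted p = 0.359). Its p before adjustment was no higher than 0.05, beside 10.6% of tested genes. Sham replicate 3 had the smallest weight, 0.21, so this fit also leaned on the other libraries.

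**Figure D2:**
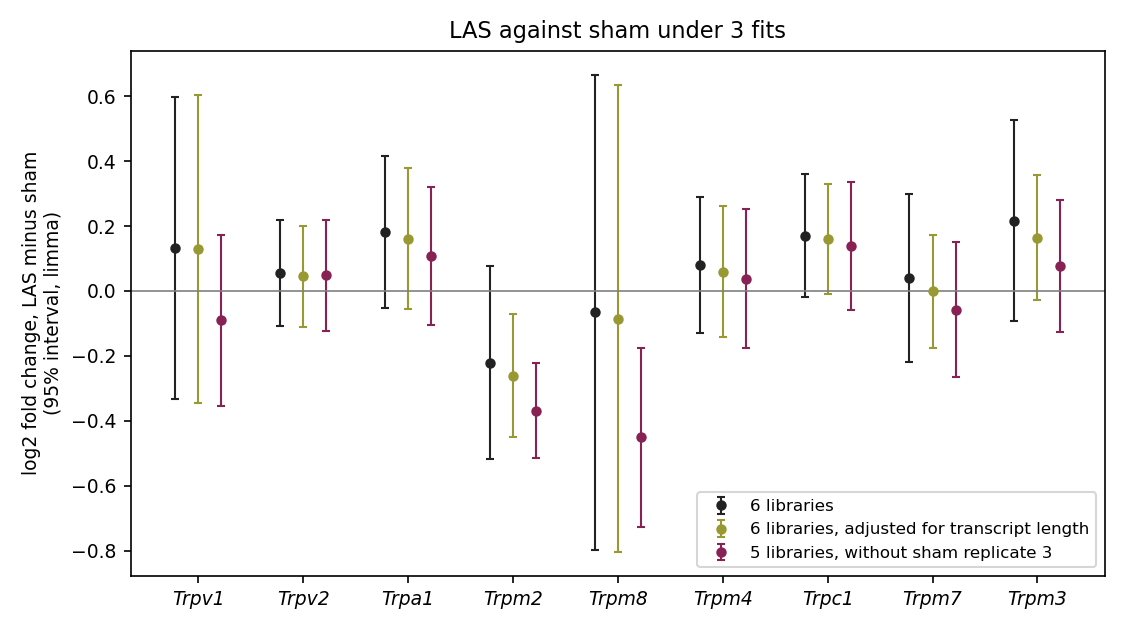
log2 fold change of the 9 TRP channels, LAS minus sham, with 95% intervals from limma over 6 libraries (black), over 6 libraries after adjustment for transcript length (olive) and over 5 libraries without sham replicate 3 (purple). The purple intervals of Trpm2 and Trpm8, at -0.37 and -0.45, and the olive interval of Trpm2, at -0.26, lie below 0. Neither gene passed after adjustment over all genes.

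Trpm4, Trpm7 and Trpc1, which are expressed in many cell types beside neurons, had groups that overlapped or touched. Trpm4 was at 7.63, 8.71 and 7.47 FPKM in sham and at 8.51, 8.88 and 7.77 FPKM in LAS libraries. The groups overlapped, with a log2 fold change of 0.08 (95% interval -0.13 to 0.29 from limma). It was 0.04 without sham replicate 3 or LAS replicate 2, 0.05 without sham replicate 1, 0.13 without LAS replicate 3 and 0.15 without sham replicate 2. Trpm7 was at 6.41, 6.12 and 5.09 FPKM in sham and at 6.04, 5.57 and 6.46 FPKM in LAS libraries. LAS replicate 3 held the highest and sham replicate 3 the lowest Trpm7 value, and LAS minus sham was 0.04 on the log2 scale over 6 libraries and -0.06 over 5.

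Trpc1 had the smallest p of the 9 channels over 6 libraries. It was at 7.22, 6.34 and 6.32 FPKM in sham replicates 1 to 3. The LAS replicates were at 7.22, 7.38 and 7.78 FPKM. No LAS library was below a sham library, but LAS replicate 1 and sham replicate 1 had the same value. The log2 fold change was 0.17 (95% interval -0.02 to 0.36, adjusted p = 1.00 from limma), and 0.14 without sham replicate 3.

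Sham replicate 3 was the low library for most channels. It held the lowest level of 8 of the 9 channels, Trpv2 being the exception, beside 25.2% of tested genes. Its log2 difference from the mean of the other 5 libraries was -0.89 for Trpm8 and -0.62 for Trpv1. Only 0.45% of tested genes were further below the other libraries than Trpm8, and 1.32% than Trpv1. This difference was -0.465 for Trpm3 (2.68% of genes further below), -0.285 for Trpa1 (9.21%) and -0.052 for Trpv2 (36.1%).

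The mean log2 level of the pan-neuronal markers was 8.34 to 8.39 in all 6 libraries, and 8.35 in sham replicate 3. Single markers went both ways there, since 3 of the 10 were highest (Uchl1, Tubb3 and Snap25) and 2 were lowest (Rbfox3 and Elavl4). Peptidergic nociceptor markers had a mean log2 level of 6.50 in sham replicate 3 and 6.45 to 6.63 elsewhere. Within this list 4 of 7 markers were lowest and 2 were highest in sham replicate 3. Scn10a, the nociceptor sodium channel, was lowest there at 144 FPKM, against 168 to 208 FPKM elsewhere. Calca, which encodes CGRP, was highest there at 993 FPKM, against 852 to 957 FPKM. Mrgprd, a receptor of non-peptidergic nociceptors, was at 25.0 FPKM in sham replicate 3 and at 34.4 to 46.0 FPKM elsewhere. In its list of non-peptidergic and itch neuron markers 4 of 10 were lowest and 1 was highest in sham replicate 3, and the mean log2 level was 4.57 there and 4.56 to 4.83 elsewhere. Markers of myelinated A-fibre neurons had a mean log2 level of 5.82 in sham replicate 3 and 5.43 to 5.69 elsewhere. Of these 8 markers 2 were highest and 1 was lowest there. A single marker lay 1.772 above the mean of the other 5 libraries on the log2 scale. The list mean therefore does not show that these markers rose together. When the pan-neuronal mean was set equal in every library, the Trpv1 log2 fold change was 0.11 and that of Trpm8 was -0.08, close to the values as deposited.

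**Figure D3:**
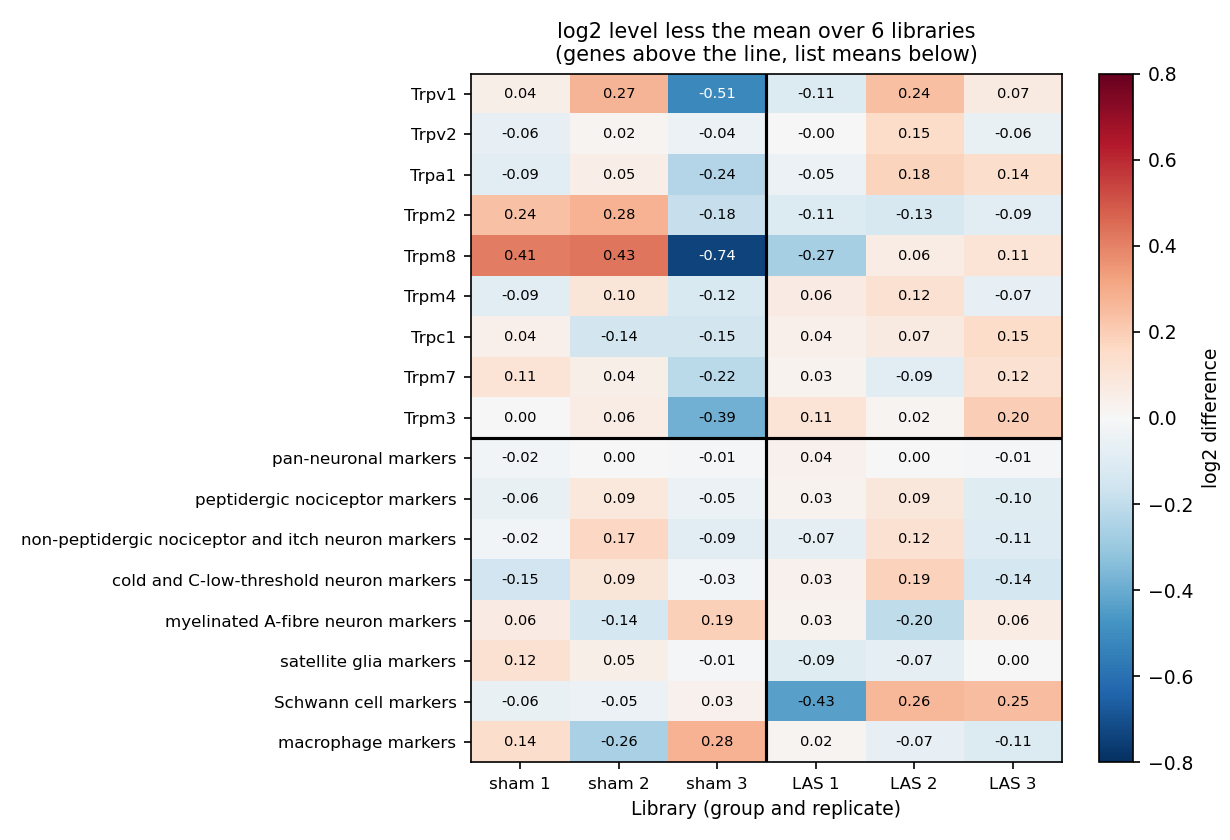
log2 level of each TRP channel (above the line) and mean of each marker list (below) in each library, less its mean over the 6 libraries, with red for above and blue for below. The sham 3 column is blue for all 9 channels, from -0.04 for Trpv2 to -0.74 for Trpm8, while the pan-neuronal mean there is -0.01.

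Transcript length went with the level in sham replicate 3 across all genes. The longest annotated GENCODE transcript, matched by symbol, gave a length for 97.7% of tested genes. Genes under 1000 bases had a median of 0.334 above the other libraries on the log2 scale in sham replicate 3, and the median fell step by step to -0.185 for genes of 6000 bases or more. Of those longest genes 64.5% had their lowest level in sham replicate 3, against 3.48% of the shortest. The same medians ran from -0.071 to 0.061 in LAS libraries, and from -0.128 to 0.065 and from -0.135 to 0.043 in sham replicates 1 and 2. They rose with length in sham replicates 1 and 2 and in LAS replicate 3. For these libraries the mean of the other 5 includes sham replicate 3, whose fall with length by itself pushes the medians upward. Of the 9 channels, 7 had transcripts of 4000 bases or more, with Trpm3 the longest at 12305 bases, while Trpv1 (3361 bases) and Trpv2 (3671 bases) were near the 3417 bases of the median tested gene.

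Trpv1 and Trpm8 lay furthest below the genes of their own length in that library. Trpm2 and Trpm7, with 7274 and 7107 bases, differed by -0.222 and -0.259 in sham replicate 3, beside a median of -0.185 for their length. Trpv1 differed by -0.62 where the median for 3000 to 4000 bases was 0.023, and Trpm8 by -0.89 where the median for 4000 to 6000 bases was -0.063. Macrophage markers, whose cells can carry Trpv2 and Trpm2, summed to 52.2 FPKM in sham replicate 3 and 34.4 to 45.1 FPKM elsewhere. The part of transcript length and of the muscle, neutrophil and erythroid markers in the channels' levels was not tested.

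**Figure D4:**
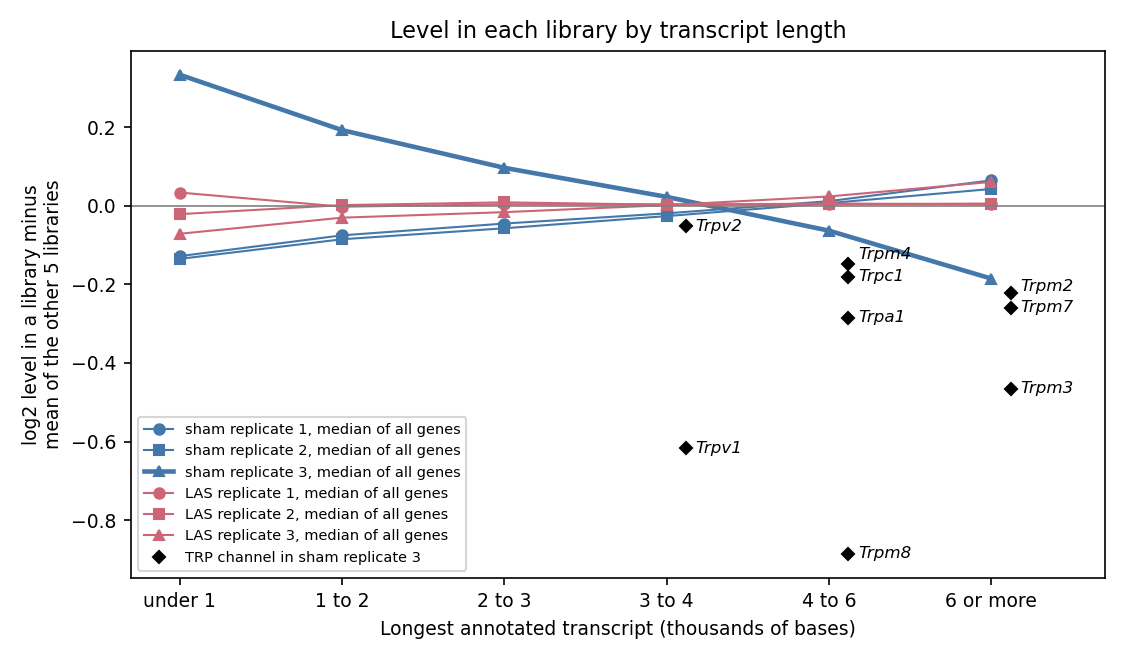
Median log2 level of all tested genes in each library minus the mean of the other 5 libraries (vertical axis), by length of the longest annotated transcript (horizontal axis), with black diamonds for the 9 TRP channels in sham replicate 3. The line of sham replicate 3 falls from 0.334 to -0.185, and Trpv1 at -0.62 and Trpm8 at -0.89 lie well below it.

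After adjustment for transcript length within each library, a step chosen after the data were seen, 0 channels and 0 of 13678 genes were called. The Trpm2 log2 fold change was then -0.26 (95% interval -0.45 to -0.07, adjusted p = 0.927 from limma). Trpm2 was the 1 channel with a limma p no higher than 0.05 before adjustment over all genes in this fit, beside 5.14% of genes. Trpm3 was at 0.16 (95% interval -0.03 to 0.36) and Trpv1 at 0.13 (95% interval -0.34 to 0.60). The standard errors narrowed for some channels and not for others. For Trpm2 and Trpm3 the standard error was 0.13 before and 0.08 after adjustment, and for Trpm8 it was 0.31 before and 0.305 after.

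A few genes followed single channels closely over the 6 libraries, given here as a description from a search over all tested genes. Among the genes most like Trpv1 were Nol4l (Pearson r = 0.992) and Pogk. Trpa1 was most like Stk32a (r = 0.997), Serpina3i and Uhrf2. Among those most like Trpm8 were Arid1a (r = 0.997) and Prrc2c, and Trpm2 was most like the hexokinase gene Hk1 (r = 0.999), Ubap2 and Ajm1. Many genes came close, with 144 to 471 genes at an r of at least 0.9 for each of these channels. Hk1 was at 145, 147 and 129 FPKM in sham replicates 1 to 3 and at 132 to 134 FPKM in LAS libraries, the same order of groups as Trpm2. Sham replicate 3 differed in composition as described above. Without it r was 0.9685 for Nol4l with Trpv1 and 0.995 for Stk32a with Trpa1. It was 0.9932 for Arid1a with Trpm8 and 0.9999 for Hk1 with Trpm2. Many genes were this close over the 6 libraries, so such likeness carries no statement on shared control.

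The rest of the TRP superfamily was mostly low in DRG. Of 19 other members, 7 were tested, 12 did not reach the level for testing and 0 were called. Mcoln1, a channel of lysosomes, had the highest level of all TRP genes, at 37.6 to 40.6 FPKM. Trpc6 had the smallest p of this list, with 4.92 ± 0.391 against 5.59 ± 0.142 FPKM (sham against LAS, SD, n = 3 each) (log2 fold change 0.18, and 0.24 without sham replicate 3, adjusted p = 1.00 and 0.423 from limma). For Trpc6 the groups did not overlap, the LAS libraries being higher, beside 9.7% of tested genes without overlap in either direction. Trpv4, an osmosensitive channel picked with its values in view, averaged 1.64 ± 0.186 against 1.36 ± 0.115 FPKM (sham against LAS, SD, n = 3 each). Trpc2 was listed at 0 in 5 libraries and at 0.11 FPKM in LAS replicate 3, and Trpv5, Trpv6 and Mcoln3 were listed at 0 in all 6. The paper lists Trpc2 among its top up-regulated genes by its own comparison, while here Trpc2 was below the level for testing. The tested members of the list had a median log2 fold change of -0.08, with 2 higher and 5 lower.

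Genes for proteins that bind or modulate these channels were close to even between the groups. Of 32 listed genes 30 were tested, with 20 higher, 10 lower and 0 called, and their median log2 fold change was 0.02. The calmodulin gene Calm2 had the highest level, at 734 ± 80.2 against 753 ± 52.2 FPKM (sham against LAS, SD, n = 3 each). Gnaq, the G protein subunit that couples inflammatory receptors to phospholipase C, had the smallest p, at 51.5 ± 3.27 against 54.6 ± 0.678 FPKM (sham against LAS, SD, n = 3 each) (adjusted p = 1.00 from limma). Pirt, a membrane protein that binds Trpv1 and Trpm8 and was picked with its values in view, ranged over 264 to 303 FPKM. Without sham replicate 3 the list had 14 genes higher and 16 lower, and again 0 were called.

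Markers of the neurons that carry these channels were mixed in direction. By log2 fold change, 2 of 7 peptidergic nociceptor markers were above 0 and 5 below, and without sham replicate 3 it was 4 above and 3 below. Of 10 markers of non-peptidergic and itch neurons 5 were above and 5 below 0, and 3 above and 7 below without that library. Of 7 markers of cold-sensing and C-low-threshold neurons 5 were above and 2 below 0, and 4 above and 3 below without it. None of these 24 genes was called with or without sham replicate 3. Of 8 markers of myelinated A-fibre neurons 3 were above and 5 below 0, with and without that library, and 0 were called. Tac1, which encodes substance P, had the smallest p of the peptidergic list, at 145 ± 6.51 against 162 ± 11.3 FPKM (sham against LAS, SD, n = 3 each) (log2 fold change 0.16, and 0.12 without sham replicate 3, adjusted p = 1.00 and 0.555 from limma). Ret, a receptor kinase, had the highest level of the itch list, at 115 ± 12.7 against 113 ± 6.94 FPKM. Th, the tyrosine hydroxylase of C-low-threshold neurons, was both the highest gene and the one with the smallest p of its list, at 77.5 ± 15.8 against 64.9 ± 11.0 FPKM (log2 fold change -0.25, and -0.14 without sham replicate 3, adjusted p = 1.00 and 0.831 from limma). Sst, the somatostatin gene of itch neurons, was at 13.1 ± 2.42 against 10.3 ± 1.55 FPKM (sham against LAS, SD, n = 3 each) (log2 fold change -0.34, and -0.46 without sham replicate 3, adjusted p = 1.00 and 0.414 from limma).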

How the data were processed

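RNA of ipsilateral DRG on day 14 was measured in 3 sham and 3 LAS libraries, grouped by their labels. The authors sequenced on BGISEQ-500, mapped reads to mouse and deposited gene FPKM values, rounded to 2 decimals. Which aligner, counting rule, strand setting and build they used is not given in the sources used here. FPKM carries no counts, so the depth behind each value is unknown. The authors also deposited p-values, q-values and a log2 fold change of their own comparison, made with edgeR and limma-voom, which were not used. From their comparison the paper reports both up- and downregulated genes, unlike the fit on FPKM used here.

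LAS was set against sham with limma 3.58.1 (R 4.3.3, trended prior variance) on log2(FPKM + 0.1). The 14006 genes that reached 0.5 FPKM in 3 or more libraries were tested, and p-values were adjusted over them by Benjamini and Hochberg. For low genes the pseudocount shrinks the fold. The test was checked on simulated data. An exact permutation test of 3 libraries against 3 cannot go below 0.10, so none was run.

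Members and gene lists were chosen with earlier results of these data known. Named are all 9 channels, the highest gene and the gene with the smallest p of each list described, and the 3 genes most like Trpv1, Trpa1, Trpm8 and Trpm2. A few genes that these rules name are not reported here. Markers of muscle, neutrophils and macrophages are given as sums, erythroid markers as a count and Fabp7 singly. Scn10a, Mrgprd, Pirt, Tubb3, Snap25, Rbfox3, Elavl4, Trpc2, Trpv4, Trpv5, Trpv6 and Mcoln3 are named outside these rules, with their values known. Alternatives covered the pseudocount, filter, scaling, variance model, replicate block, fold minimum and leaving out each library, and scaling to neurons or transcript length was added after seeing the data. Transcript lengths came from GENCODE M21. Genes annotated on the opposite strand overlap Trpm8, Trpm3, Trpm4 and Trpm7, and their reads cannot be told apart without strand.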

Additional observations from a re-analysis of the deposited data

How the results depend on the processing

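Over the 6 libraries 0 genes and 0 of the 9 channels were called, and both counts were 0 under every alternative run, those without each library and the fold minimum of 1.5 on the log2 scale included. Trpa1, Trpm2, Trpm4, Trpc1 and Trpm3 kept their direction in all 20 alternatives that refit the fold change, Trpv2 in 19, Trpm8 in 17, Trpv1 in 16 and Trpm7 in 14. These counts include alternatives that cannot move the log2 fold change. Changing the filter, dropping the variance trend and adding the replicate block left it the same for every channel. With array weights the log2 fold change turned to -0.0594 for Trpv1 and -0.0036 for Trpm7. Scaled to pan-neuronal markers and without sham replicate 3 it was -0.1092 for Trpv1 and -0.0762 for Trpm7. Adjusted for transcript length it was -9e-04 for Trpm7, and with sham replicate 3 also left out -0.0303 for Trpm7 and -0.1088 for Trpv1. Leaving out each library in turn gave -0.091 to 0.3008 for Trpv1, -0.0046 to 0.10 for Trpv2, -0.45 to 0.13 for Trpm8 and -0.058 to 0.1054 for Trpm7. It gave 0.11 to 0.25 for Trpa1, -0.37 to -0.14 for Trpm2, 0.04 to 0.15 for Trpm4, 0.14 to 0.23 for Trpc1 and 0.08 to 0.30 for Trpm3. For Trpm8 the value was above 0 without sham replicate 1, sham replicate 2 or LAS replicate 1, for Trpv1 below 0 without sham replicate 3, for Trpv2 below 0 without LAS replicate 2, and for Trpm7 below 0 without sham replicate 3 or LAS replicate 3. The cause was not tested. Before adjustment p was no higher than 0.05 for 1416 genes without sham replicate 3 and 1487 with array weights, against 495 over the 6 libraries.

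Samples with the same replicate number did not deviate together, with correlations across genes of -0.41, 0.24 and -0.15 for numbers 1 to 3. The fit with the replicate number as a block called 0 genes and 0 channels, and its log2 fold changes were those without it (0.13 for Trpv1 and -0.22 for Trpm2). With 3 libraries a group, the 95% limma intervals covered folds of 0.794 to 1.51 for Trpv1 and 0.575 to 1.59 for Trpm8.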

Other observations

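Of all the marker lists examined, 1 gene had a limma p no higher than 0.05 before adjustment over the 6 libraries, beside 3.53% of all tested genes. Fabp7, a fatty acid binding protein of satellite glia, the cells that wrap the somata of DRG neurons, averaged 131 ± 21.9 against 76.6 ± 7.19 FPKM (sham against LAS, SD, n = 3 each). LAS minus sham was -0.77 on the log2 scale (SE 0.13, limma adjusted p = 1.00) and -0.64 without sham replicate 3 (limma adjusted p = 0.136), so it did not pass. The other 5 satellite glia markers had p above 0.05 before adjustment.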
